A study of Mus musculus with 7 samples.

Results

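The pericentral Wnt target genes examined here were *Glul*, *Oat*, *Rgn*, *Lect2*, *Axin2*, *Lgr5*, *Rnf43*, *Tbx3* and *Slc1a2*, together with the vasopressin receptor gene *Avpr1a*. They make up 10 of the 14851 gene identifiers in a table of mouse liver RNA-seq values. Members were found by matching each identifier to a gene symbol, and all 10 were present. The set was selected on values of these same livers: the normalised counts in FL and WT livers were known when it was drawn up, and *Avpr1a* was put beside the pericentral genes for its difference between the genotypes. Differences between genotypes in the members are therefore given as a description, without p-values.

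The livers came from 4 *Albumin-Cre; p53FL/FL* mice (FL) and 3 *Albumin-Cre; p53 WT* mice (WT). All were male C57BL/6J (N10) mice of about 70 days, and all received a single intraperitoneal injection of the hepatotoxin carbon tetrachloride (CCl4), at 1 mL/kg of a 20% stock in corn oil, 8 h before sampling. The Cre recombinase is driven by the *Albumin* promoter, and the study describes the deletion of *p53* as specific to the liver. Which cells of an FL liver kept intact *p53* was not measured here. WT mice carry the Cre transgene too. Some mice of both genotypes carried a *Rosa26 LSL-tdRFP* reporter, and which ones is not given in the sources used here. No untreated liver was analysed here, so no value below measures a response to CCl4.

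Hepatocytes around the central vein differ from those around the portal tract. Wnt ligands and R-spondins made by central vein endothelium keep β-catenin active in the neighbouring hepatocytes, where β-catenin works with TCF/LEF factors at target genes such as *Glul*. R-spondins act through LGR receptors by removing the ligases RNF43 and ZNRF3, which otherwise clear Frizzled receptors from the cell surface, and AXIN2 limits the pathway by feeding back on β-catenin degradation. Pericentral hepatocytes are also where CCl4 is converted into a toxic radical, chiefly by CYP2E1.

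The letters that TCF/LEF factors are known to bind, ATCAAAG or TTCAAAG, were searched on both strands in the 250 bases before the RefSeq start of each gene (build GRCm38.p6). Of the 10 genes, 7 had an entry, with 8 windows because *Rnf43* had 2, and *Lgr5*, *Rgn* and *Tbx3* had none. A match was found in 2 of the 8 windows, those of *Lect2* and *Slc1a2*, and in 7.48% of all 32851 windows. Both are printed, 5′ to 3′ on the strand of the gene, with the match in capitals, beside the window of *Avpr1a*, the member that was higher in FL livers, which held no match. The *Lect2* window is chr13:56548539-56548788 on the minus strand and its match lies 32 to 26 bases before the start. The *Slc1a2* window is chr2:102706188-102706437 on the plus strand, inside the annotated gene, and its match lies 207 to 201 bases before that start. The *Avpr1a* window is chr10:122448249-122448498 on the plus strand.
Lect2: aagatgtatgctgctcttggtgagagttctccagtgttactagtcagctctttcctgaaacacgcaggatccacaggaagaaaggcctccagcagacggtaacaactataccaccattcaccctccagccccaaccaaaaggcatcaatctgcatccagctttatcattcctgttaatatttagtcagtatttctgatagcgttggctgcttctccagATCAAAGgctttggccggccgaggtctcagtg
Slc1a2: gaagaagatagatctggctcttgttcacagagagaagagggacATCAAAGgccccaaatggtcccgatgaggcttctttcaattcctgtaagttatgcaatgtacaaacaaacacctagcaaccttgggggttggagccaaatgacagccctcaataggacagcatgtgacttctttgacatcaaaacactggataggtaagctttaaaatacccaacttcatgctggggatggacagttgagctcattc
Avpr1a: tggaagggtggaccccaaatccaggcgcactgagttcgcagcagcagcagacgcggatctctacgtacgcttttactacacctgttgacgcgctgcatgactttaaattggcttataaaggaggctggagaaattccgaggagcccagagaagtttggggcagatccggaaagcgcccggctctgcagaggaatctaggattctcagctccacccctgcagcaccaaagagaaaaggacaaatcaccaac
A match describes the letters of the window, and no match says only that these letters are not in it.

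Values are normalised counts, in which the number of reads on a gene is divided by a factor for the library's depth and rounded to a whole number. Totals ran from 14123213 to 16554427 per liver, and 1 read was worth an estimated 0.811 to 1.384. *Trp53*, the targeted gene, read 131, 130, 217 and 110 in FL livers 1 to 4 and 876, 688 and 831 in WT livers 1 to 3. FL livers thus averaged 147 ± 47.7 (SD, n = 4) and WT livers 798 ± 98.2 (SD, n = 3), or 18.4% of WT, giving a log2 fold change of -2.47 with a standard error of 0.23 (adjusted p = 0.0447, limma with Benjamini-Hochberg adjustment over 12545 genes). The labels and the targeted gene therefore did not conflict. With 1 liver left out, the limma call held without FL liver 3, and the adjusted p was 0.0597 to 0.32 without any of the others. *Trp53* lies on chromosome 11, as do *Rnf43* at 18.1 Mb and *Axin2* at 39.3 Mb from it.

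A liver of each genotype stood apart. WT liver 2 was more than 2-fold beyond both other WT livers in 1953 tested genes, against 79 and 103 for WT livers 1 and 3. FL liver 3 was more than 2-fold beyond every other FL liver in 400 genes, against 47 to 58 for FL livers 1, 2 and 4. Each member's log2 fold change is accordingly given also without these 2 livers. They were picked for standing apart in these same values. A smaller standard error or adjusted p without them thus follows in part from that choice. The sample source names of the WT mice shared a prefix that no FL mouse had, so that source and genotype cannot be told apart. In whole liver, fewer pericentral hepatocytes and less RNA per pericentral hepatocyte cannot be told apart.

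Across the 12545 genes whose mean was at least 10, 2 genes (0.0159%) passed the adjusted threshold of 0.05, both lower in FL livers. They were *Trp53* and *Eda2r*, a receptor gene known as a p53 target and named here after its values were seen. The study's own fit of these livers, with the count model DESeq2, called more genes at an adjusted p under 0.05. None of the 9 members tested passed the adjusted threshold in the limma fit. Without WT liver 2 and FL liver 3, 6 of 12325 genes (0.0487%) passed, among them 1 member, *Avpr1a*. At an unadjusted p under 0.05, limma gave 4 of the 9 members, against 3.2% of all genes tested. Of these 1 was higher in FL livers, against 1.59%, and 3 were lower, against 1.6%. The FL and WT values did not overlap in 4 of the 10 members, with *Avpr1a* higher and *Oat*, *Rgn* and *Lect2* lower in FL livers. Over all genes tested, 4.76% did not overlap, 2.77% being higher and 1.98% lower. Because the members were chosen with this contrast known, nothing is read from these counts. The median log2 fold change of the 9 members was -0.07, beside 0.007 for all genes tested, and -0.30 without WT liver 2 and FL liver 3.

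**Figure D1:**
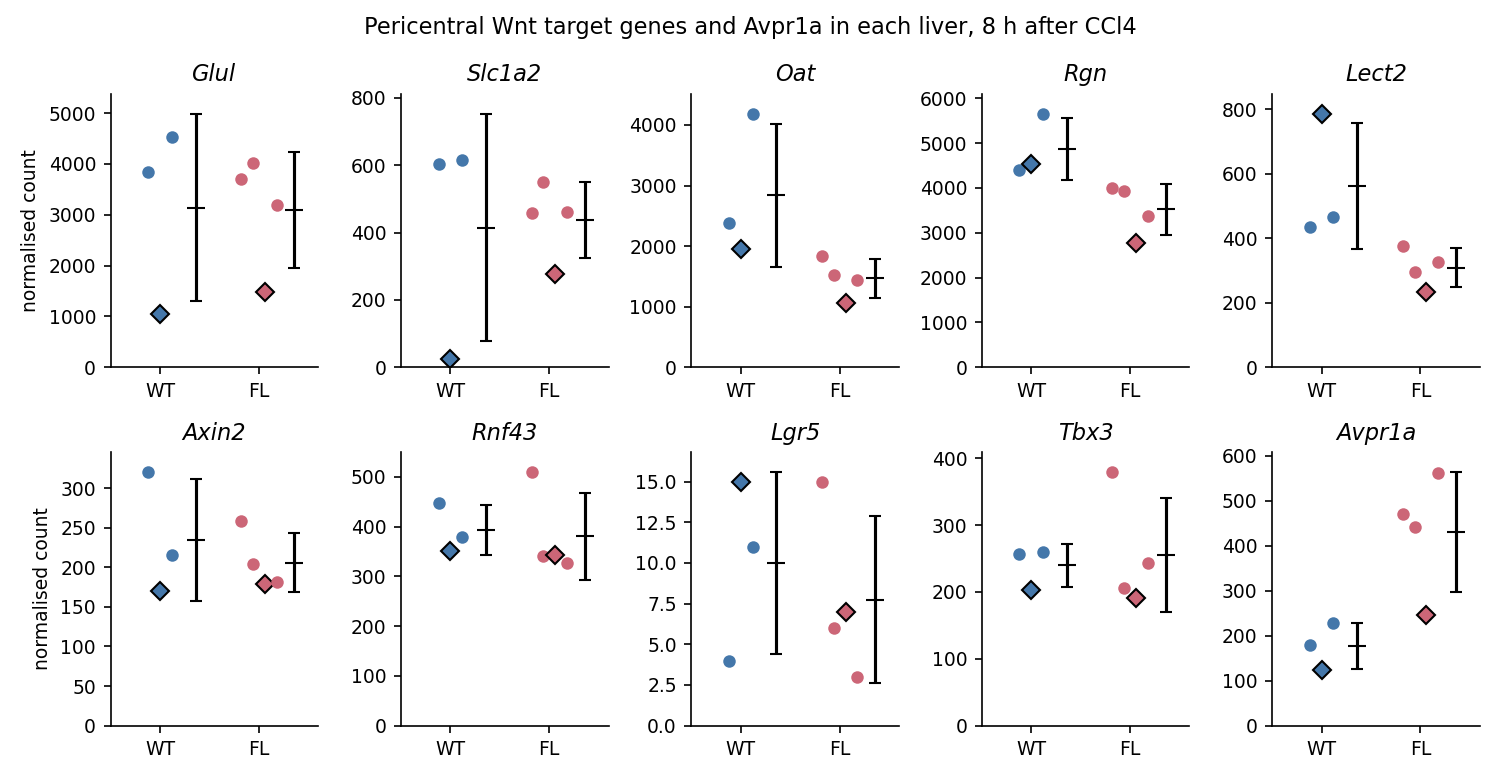
Normalised counts (y axis, linear from 0) of the 10 genes in each WT (blue) and FL (red) liver 8 h after CCl4, with the mean and SD of each genotype at the right of its points. Diamonds mark WT liver 2 and FL liver 3. In *Avpr1a* the FL livers sit at 245 to 561 and the WT livers at 124 to 228, whereas *Glul* and *Slc1a2* are set apart mainly by the diamonds.

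*Glul* encodes glutamine synthetase, which captures ammonia in the innermost ring of pericentral hepatocytes (ENSMUSG00000026473, GRCm38 chr1:153899944-153909723). It read 3702, 4016, 1470 and 3195 in FL livers 1 to 4, and 3838, 1048 and 4538 in WT livers 1 to 3. Both genotypes thus held a single low liver, FL liver 3 at 40.4% of the mean of the other FL livers and WT liver 2 at 25.0% of the mean of the other WT livers. Means were 3096 ± 1135 in FL and 3141 ± 1846 in WT livers (SD over 4 and 3 livers), giving a log2 fold change of 0.13 with a standard error of 0.55. Without those 2 livers it was -0.20 (standard error 0.12), so that the sign turned and the error narrowed. It was -0.53 without WT liver 2 alone and 0.46 without FL liver 3 alone. Of the stretches of 36 bases in its transcripts, 17.6% also occur in transcripts of other genes, among them the pseudogene *Glns-ps1*, and reads from these are uncertain.

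*Slc1a2* encodes a glutamate transporter that brings in the substrate of glutamine synthetase (ENSMUSG00000005089, GRCm38 chr2:102658659-102790784). FL livers 1 to 4 read 458, 551, 278 and 460, and WT livers 1 to 3 read 604, 24 and 616. WT liver 2 held 3.93% of the mean of the other WT livers, a difference of 25.4-fold, and FL liver 3 held 56.8% of the mean of the other FL livers. The genotypes averaged 437 ± 114 (FL, SD, n = 4) and 415 ± 338 (WT, SD, n = 3). The log2 fold change was 1.01 (standard error 1.05) with all livers and -0.32 (standard error 0.11) without the 2 that stood apart. It was -0.52 without WT liver 2 alone and 1.22 without FL liver 3 alone, so its sign rested on WT liver 2.

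*Oat*, ornithine aminotransferase, connects the metabolism of ornithine with that of glutamate (ENSMUSG00000030934, GRCm38 chr7:132557478-132576398). Its values were 1836, 1518, 1068 and 1441 in FL livers 1 to 4 and 2383, 1958 and 4185 in WT livers 1 to 3. The highest FL liver lay under the lowest WT liver, and WT liver 3 stood well above the rest. Mean levels were 1466 ± 316 in FL and 2842 ± 1182 in WT livers (SD over 4 and 3 livers), 1.94-fold higher in WT. The log2 fold change was -0.90 (standard error 0.28), and -0.99 (standard error 0.20) without WT liver 2 and FL liver 3. It was -0.59 without WT liver 3. The gene lies within the annotated span of *Fgfr2* on the same strand.

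*Rgn*, or regucalcin, is a calcium-binding protein and a gluconolactonase of ascorbate synthesis (ENSMUSG00000023070, GRCm38 chrX:20549787-20562089). FL livers 1 to 4 held 4009, 3936, 2779 and 3375, and WT livers 1 to 3 held 4410, 4545 and 5655. Again no FL liver reached the lowest WT liver, but the gap between 4009 and 4410 was narrow. The means of 3525 ± 572 in FL and 4870 ± 683 in WT livers (SD over 4 and 3 livers) differed 1.38-fold. The log2 fold change was -0.47 (standard error 0.16), or -0.41 (standard error 0.12) without the 2 livers that stood apart.

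*Lect2* encodes a secreted protein that hepatocytes release into blood (ENSMUSG00000021539, GRCm38 chr13:56542464-56548502). It read 377, 295, 233 and 326 in FL livers 1 to 4 and 434, 786 and 466 in WT livers 1 to 3. Unlike in *Glul* and *Slc1a2*, WT liver 2 was here the highest of its genotype, at 175% of the mean of the other WT livers. Levels averaged 308 ± 60.2 in FL and 562 ± 195 in WT livers (SD over 4 and 3 livers), 1.83-fold higher in WT. The log2 fold change of -0.84 (standard error 0.24) became -0.44 (standard error 0.12) without WT liver 2 and FL liver 3, keeping its sign at a smaller size.

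The feedback regulators of the pathway overlapped between genotypes. *Axin2*, a scaffold of the β-catenin destruction complex (ENSMUSG00000000142, GRCm38 chr11:108920349-108950783), read 259, 204, 179 and 181 in FL livers 1 to 4 and 320, 170 and 215 in WT livers 1 to 3. With 206 ± 37.3 in FL and 235 ± 77 in WT livers (SD over 4 and 3 livers), its log2 fold change was -0.16 (standard error 0.23). *Rnf43*, the ligase that clears Frizzled receptors (ENSMUSG00000034177, GRCm38 chr11:87662722-87735539), read 509, 341, 342 and 326 in FL livers and 448, 351 and 379 in WT livers. FL liver 1 stood alone at the top, and the other FL livers were below the WT range. The means of 380 ± 86.6 and 393 ± 49.9 (SD over 4 and 3 livers) gave a log2 fold change of -0.07 with a standard error of 0.18. For *Axin2* it was -0.30 (standard error 0.20) and for *Rnf43* -0.10 (standard error 0.19) without the 2 livers that stood apart. Without WT liver 1 the signs turned, to 0.09 and 0.03.

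*Lgr5*, an R-spondin receptor found in pericentral hepatocytes (ENSMUSG00000020140, GRCm38 chr10:115450311-115587780), was near the floor of the table. It read 15, 6, 7 and 3 in FL livers 1 to 4 and 4, 15 and 11 in WT livers 1 to 3. A mean of 8.71 over the 7 livers kept it out of the fit, and values this small carry too few reads for any but a large difference to be detectable. FL livers averaged 7.75 ± 5.12 and WT livers 10 ± 5.57 (SD over 4 and 3 livers). Its paralogue *Lgr4*, which is broadly expressed, was far better covered, with 451 to 617 in FL and 521 to 561 in WT livers.

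*Tbx3* encodes a T-box repressor of transcription (ENSMUSG00000018604, GRCm38 chr5:119670669-119684724). Its values were 379, 206, 191 and 244 in FL livers 1 to 4 and 257, 203 and 260 in WT livers 1 to 3. FL livers lay on both sides of the WT range. The averages of 255 ± 85.6 in FL and 240 ± 32.1 in WT livers (SD over 4 and 3 livers) corresponded to a log2 fold change of 0.04 with a standard error of 0.24, and of 0.05 (standard error 0.22) without WT liver 2 and FL liver 3. It was -0.17 without FL liver 1.

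*Avpr1a* encodes the V1a vasopressin receptor, through which vasopressin raises calcium in hepatocytes by way of the G proteins Gq and G11 (ENSMUSG00000020123, GRCm38 chr10:122448499-122453452). FL livers 1 to 4 read 470, 442, 245 and 561, and WT livers 1 to 3 read 180, 124 and 228. It was the single member whose lowest FL liver lay above its highest WT liver. FL livers averaged 430 ± 133 and WT livers 177 ± 52.1 (SD over 4 and 3 livers), a 2.42-fold difference. The low values were again those of FL liver 3, at 49.9% of the mean of the other FL livers, and WT liver 2, at 60.8% of the mean of the other WT livers. The log2 fold change was 1.25 (standard error 0.31) with all livers and 1.27 (standard error 0.14) without these. The smaller error follows in part from leaving out livers that were picked for standing apart. No stretch of 36 bases in its transcripts occurs in another gene.

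**Figure D2:**
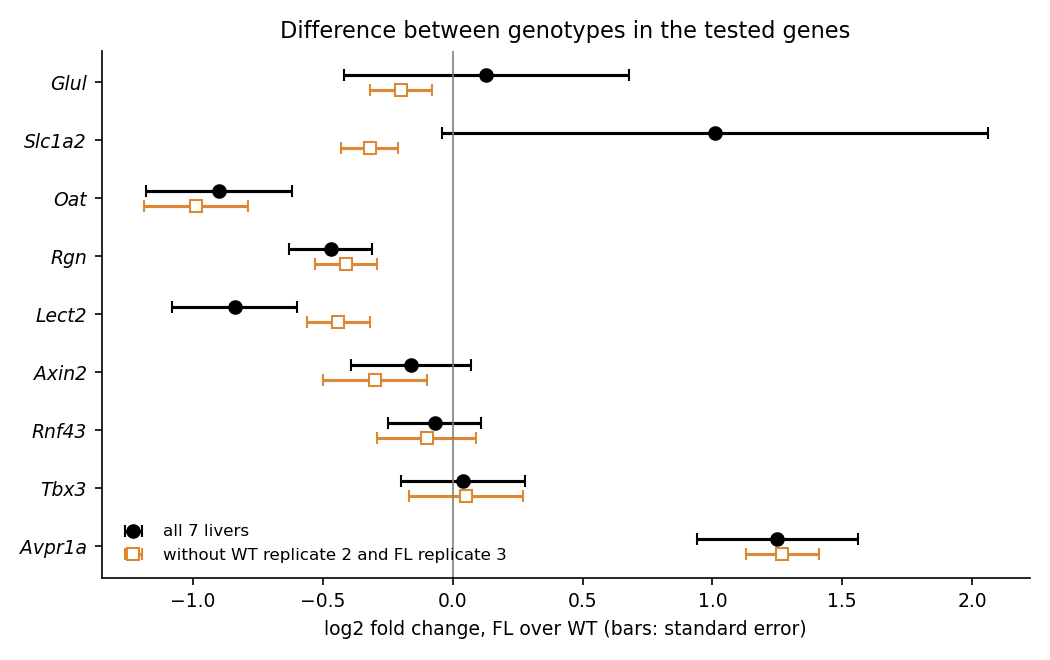
Log2 fold change, FL over WT, of the 9 tested genes (x axis), with all 7 livers (black circles) and without WT replicate 2 and FL replicate 3 (open orange squares). Bars are standard errors. *Avpr1a* stays near 1.25 in both fits, while *Slc1a2* goes from 1.01 to -0.32 and *Glul* from 0.13 to -0.20.

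Vasopressin signalling genes were examined beside the receptor. Of 12 listed, 9 were in the table and 8 were tested, and none passed the adjusted threshold or had an unadjusted p under 0.05 by limma. Over all genes tested these shares were 0.0159% and 3.2%. Their median log2 fold change was -0.05, with 3 higher and 5 lower in FL livers. The inositol trisphosphate receptors that release calcium downstream of AVPR1A included 2 whose genotypes did not overlap, beside 4.76% of all genes tested. *Itpr1* read 771, 745, 740 and 722 in FL livers and 684, 591 and 685 in WT livers, for a log2 fold change of 0.19 with a standard error of 0.10, or 0.12 without WT liver 2 and FL liver 3. *Itpr2* read 540, 514, 594 and 529 against 472, 487 and 461, a log2 fold change of 0.20 with a standard error of 0.10. These differences were small beside that of *Avpr1a*, and *Itpr3* had a log2 fold change of -0.54 with a standard error of 0.28 (-0.33 without WT liver 2 and FL liver 3). The G protein genes *Gnaq* and *Gna11* had -0.14 (standard error 0.17) and -0.05 (standard error 0.10).

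Within genotypes, most members were low in the same livers. The values of each liver were known when the set was drawn up, and this pattern too is a description. FL liver 3 was the lowest FL liver in 8 of the 10 members, against 34.8% of all genes tested. WT liver 2 was the lowest WT liver in 7 of the 10, against 44.7% of all genes tested, and 6 members were lowest in both, against 29.0%. Over the 9 tested members, the median deviation of WT liver 2 from the mean of the other WT livers was -0.62 on the log2 scale, and that of FL liver 3 from the other FL livers was -0.50. Over all genes tested these medians were 0.02 and 0.01. The genes are not independent replicates, and these values describe the 2 livers without a test.

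Most other genes known from pericentral hepatocytes were low in the same 2 livers. Of 21 in the table, 15 had their lowest WT value in WT liver 2 and 15 their lowest FL value in FL liver 3, with median deviations of -0.71 and -0.71 on the log2 scale. *Cyp2e1*, the enzyme that activates CCl4, read 46171, 48870, 17110 and 37306 in FL livers 1 to 4 and 51359, 8415 and 56150 in WT livers 1 to 3. FL liver 3 thus held 38.8% and WT liver 2 15.7% of the mean of their other livers, and as in *Glul* they were the lowest of their genotypes. *Cyp2c37*, another cytochrome P450, read 1018, 1384, 230 and 929 against 1443, 67 and 1896. Some genes of the list went the other way, *Gstm3*, a glutathione transferase, being at 2010% of the other WT livers in WT liver 2 and 487% of the other FL livers in FL liver 3. *Cyp7a1*, the rate-limiting enzyme of bile acid synthesis, was at 264% and 257%, and *Slc1a4*, an amino acid transporter, at 273% and 172%.

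Most periportal genes deviated the other way. WT liver 2 was the highest WT liver in 18 of 22, against 45.9% of all genes tested. FL liver 3 was the highest FL liver in 21 of 22, against 35.4%. Median deviations were 0.71 and 0.74 on the log2 scale. *G6pc* was low instead, at 60.8% of the other WT livers in WT liver 2 and 57.3% of the other FL livers in FL liver 3. *Cyp2f2* and *Pigr* also had their lowest WT value in WT liver 2. *Hal*, which breaks down histidine, read 2934, 2719, 9194 and 4462 in FL livers 1 to 4 and 3073, 10545 and 3631 in WT livers 1 to 3. *Gls2*, the liver glutaminase, read 4775, 4513, 10271 and 5803 against 4887, 11224 and 5509. Glutaminase was therefore high in the 2 livers in which glutamine synthetase was low.

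**Figure D3:**
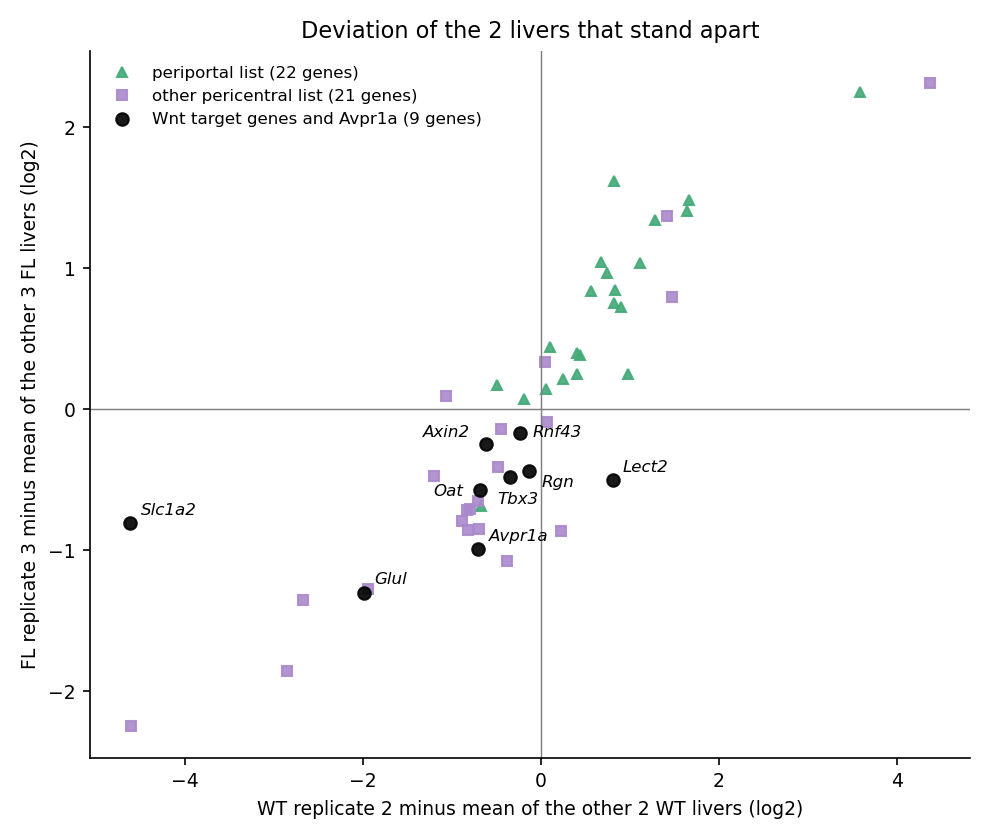
Deviation of WT replicate 2 from the mean of the other 2 WT livers (x axis, log2 of the normalised count plus 1) against that of FL replicate 3 from the mean of the other 3 FL livers (y axis, log2). Points are the 9 tested members (black, named), 21 other pericentral genes (purple) and 22 periportal genes (green), and most periportal genes sit at the upper right, with *Glul* and *Slc1a2* at the lower left and *Lect2* to the right of 0.

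Markers of several other cell types moved with these livers as well. Summed over 8 stellate cell markers, WT liver 2 held 8182, against 1163 to 1401 in the other WT livers, and FL liver 3 held 2108, against 1171 to 1288 in the other FL livers. Much of that sum was *Col1a1* and *Col3a1*, 1744 and 4265 in WT liver 2 and 334 and 704 in FL liver 3, and FL liver 3 was the highest FL liver in 4 of the 8. The 10 proliferation genes summed to 1589 in WT liver 2, against 388 and 394 in the other WT livers, and to 575 in FL liver 3, against 332 to 377. *Pcna*, in that list, was not raised, with 162 in WT liver 2 against 209 and 190, and 190 in FL liver 3 against 191 to 203. Macrophage markers summed to 8363 in WT liver 2 and 5456 in FL liver 3, where the other livers ranged from 3511 to 4348. Neutrophil markers reached 180 and lymphocyte markers 253 in WT liver 2, with 122 and 141 in FL liver 3, while the other livers had at most 106 and 64. Much of the neutrophil sum was *Csf3r*, 113 in WT liver 2 and 62 in FL liver 3. The other neutrophil markers did not move together, *S100a8* being 13 in WT liver 2 against 22 and 11 in WT livers 1 and 3. Bile duct markers did not follow, with 603 in FL liver 3 against 1255 to 1482 in the other FL livers. They summed to 1206 in WT liver 2, against 884 and 1207 in the other WT livers. The part of all these cells in the members' low values was not tested. Hepatocyte markers were abundant in every liver, from 1154024 to 1742346 in sum, most of it *Alb*. They did not move together in the 2 livers, 3 of 6 being below the mean of the other livers in each, with *Apob* at 71.3% of the other FL livers in FL liver 3 and 75.7% of the other WT livers in WT liver 2.

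Between genotypes, hepatocyte markers had a median log2 fold change of 0.31, with 6 of 6 above 0. Stellate markers had -0.66, macrophage markers -0.26, neutrophil markers -0.42, lymphocyte markers -0.23 and proliferation genes -0.92, and none of these lists had a gene past the adjusted threshold. Without WT liver 2 and FL liver 3 these medians were -0.05 for stellate, 0.01 for macrophage, -0.21 for neutrophil and 0.45 for lymphocyte markers, the last over 2 genes, and -0.20 for proliferation genes, while that of hepatocyte markers was 0.30. Endothelial markers had 0.02, or 0.17 without the 2 livers. Bile duct markers differed among themselves, *Krt19* having -2.41 (standard error 0.62), *Krt7* -1.78 (standard error 0.62) and *Sox9* 1.14 (standard error 0.30). *Krt19* read 21, 11, 6 and 17 in FL livers 1 to 4 and 128, 106 and 26 in WT livers 1 to 3. *Lypd8*, outside the lists and named after its values were seen, was high in the same WT livers, with 1, 0, 2 and 1 against 275, 181 and 8. Whether the *Krt19* values come from bile duct cells was not tested. None of these shifts was tested as a source of the members' differences.

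The rest of the Wnt pathway, from ligands to other target genes, showed no difference that passed the test. The Wnt lists held 85 genes, of which 70 were in the table and 54 were tested. None of the 54 passed the adjusted threshold, none had an unadjusted p under 0.05 by limma, and none had genotypes that did not overlap. Over all genes tested these shares were 0.0159%, 3.2% and 4.76%, so that few would be looked for among 54. In FL livers 21 were higher and 33 lower, with a median log2 fold change of -0.03, or -0.08 without WT liver 2 and FL liver 3.

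Ligands of the central vein endothelium were measured at low levels. *Wnt2* read 70, 78, 49 and 91 in FL livers 1 to 4 and 84, 66 and 64 in WT livers 1 to 3, with a log2 fold change of -0.01 with a standard error of 0.24. *Wnt9b* read 37, 40, 24 and 36 against 32, 25 and 32, with 0.18 (standard error 0.25). *Rspo3*, the R-spondin of these cells, read 102, 93, 97 and 131 against 111, 119 and 107, with -0.10 (standard error 0.16). FL liver 3 was the lowest FL liver for both *Wnt2* and *Wnt9b*. The 6 central vein endothelial markers, these 3 among them, summed to 329 in FL liver 3 and 442 to 506 in the other FL livers, and to 458 to 491 in WT livers, where WT liver 2 did not stand apart. Among the other ligands, the lowest log2 fold change was that of *Wnt4*, -0.26 (standard error 0.57), and the highest that of *Wnt9a*, 0.28 (standard error 0.39). Without WT liver 2 and FL liver 3 *Wnt4* had 0.36 and *Wnt9a* 0.03, so that the sign of *Wnt4* turned.

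*Wls*, the carrier of Wnt proteins to the cell surface, had a log2 fold change of -0.57 with a standard error of 0.35, and *Porcn*, which attaches their lipid, 0.49 (standard error 0.23). Without WT liver 2 and FL liver 3 they had -0.30 and 0.20. Over 14 receptor genes the median was 0.0 and the range was -0.21 (*Fzd6*) to 0.35 (*Fzd9*), which had -0.38 and 0.06 without those 2 livers. *Znrf3*, the partner of *Rnf43* and itself a Wnt target, read 367, 368, 238 and 308 in FL livers 1 to 4 and 404, 170 and 405 in WT livers 1 to 3. As in *Glul*, FL liver 3 and WT liver 2 were the lowest of their genotypes. The inhibitors *Frzb*, *Dkk3* and *Notum* had -0.60 (standard error 0.34), -0.40 (standard error 0.42) and -0.21 (standard error 0.19), and without WT liver 2 and FL liver 3 they had -0.32, -0.03 and 0.00.

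Inside the cell, 13 tested genes of β-catenin and its destruction complex ranged from -0.17 to 0.17. *Ctnnb1*, β-catenin itself, read 5741, 5008, 4169 and 5158 in FL livers 1 to 4 and 5603, 3923 and 4975 in WT livers 1 to 3, with a log2 fold change of 0.06 with a standard error of 0.16. *Tcf7*, a TCF factor that is also a target, read 399, 422, 252 and 376 against 531, 150 and 507, with 0.05 (standard error 0.44), or -0.38 without WT liver 2 and FL liver 3. Both genes were lowest in FL liver 3 and WT liver 2, *Tcf7* by more.

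Other Wnt target genes did not move as a group. The 11 tested had a median of -0.07 (-0.22 without WT liver 2 and FL liver 3), from -1.28 for *Ccnd1*, cyclin D1, to 0.36 for *Sp5*, a transcription factor. *Ccnd1* read 443, 213, 527 and 331 in FL livers 1 to 4 and 475, 2564 and 543 in WT livers 1 to 3, so that its standard error was 0.59 and WT liver 2 alone was high. *Sp5* read 35, 32, 24 and 44 against 51, 8 and 39. Without WT liver 2 and FL liver 3 *Ccnd1* had -0.69 and *Sp5* -0.28. The 2 targets thus deviated in opposite directions in WT liver 2.

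Among other pericentral genes, 7 of the 21 tested were higher and 14 lower in FL livers, with a median log2 fold change of -0.06 (-0.25 without WT liver 2 and FL liver 3) and none past the adjusted threshold. *Cyp2a5*, a cytochrome P450 that hydroxylates coumarin and that the study followed up, was the 1 gene of this list whose genotypes did not overlap and that had an unadjusted p under 0.05, with 1649 ± 544 in FL and 5901 ± 3534 in WT livers (SD over 4 and 3 livers). Its log2 fold change was -1.75 (standard error 0.42). The study's own fit of these livers, with the count model DESeq2, called *Cyp2a5* at an adjusted p under 0.05. Its staining at 8 h also showed less CYP2A5 protein in FL livers. The 22 periportal genes were split evenly, with 11 higher and 11 lower, a median of -0.01 and no gene without overlap. *Hsd17b6*, a hydroxysteroid dehydrogenase, had the lowest value, -1.22 (standard error 0.50), and the 1 unadjusted p under 0.05 of the list. Over all genes tested, 4.76% had genotypes that did not overlap and 3.2% an unadjusted p under 0.05 by limma.

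Divided by the length of a gene's merged exons, mean levels of the members in FL livers ran from 0.755 to 2190 normalised counts per kilobase. In FL livers *Rgn* came first at 2190 ± 356 (SD, n = 4), followed by *Glul* at 932 ± 342, *Oat* at 621 ± 134, *Lect2* at 335 ± 65.5 and *Avpr1a* at 161 ± 49.8. The feedback genes and transcription factor lay lower, *Rnf43* at 57.9 ± 13.2, *Tbx3* at 38.5 ± 12.9 and *Axin2* at 37.4 ± 6.77, with *Slc1a2* at 33.3 ± 8.71 and *Lgr5* at 0.755 ± 0.499. Neighbours whose FL livers overlapped were *Glul* with *Oat*, *Rnf43* with *Tbx3*, *Tbx3* with *Axin2*, and *Axin2* with *Slc1a2*.

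In WT livers *Rgn* was again first, at 3030 ± 425 normalised counts per kilobase (SD, n = 3). *Oat* at 1200 ± 501 came before *Glul* at 945 ± 556, and *Lect2* followed at 612 ± 212. The WT livers of these genes overlapped, with 830 to 1770 for *Oat*, 315 to 1370 for *Glul* and 472 to 855 for *Lect2*. *Avpr1a* at 66.4 ± 19.5 and *Rnf43* at 59.9 ± 7.61 overlapped, where in FL livers all *Avpr1a* values, 91.8 to 210.0, were above those of *Rnf43*, 49.7 to 77.6. *Axin2* at 42.7 ± 14.0, *Tbx3* at 36.2 ± 4.84 and *Slc1a2* at 31.6 ± 25.8 overlapped with their neighbours, and *Lgr5* was last at 0.974 ± 0.542.

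**Figure D4:**
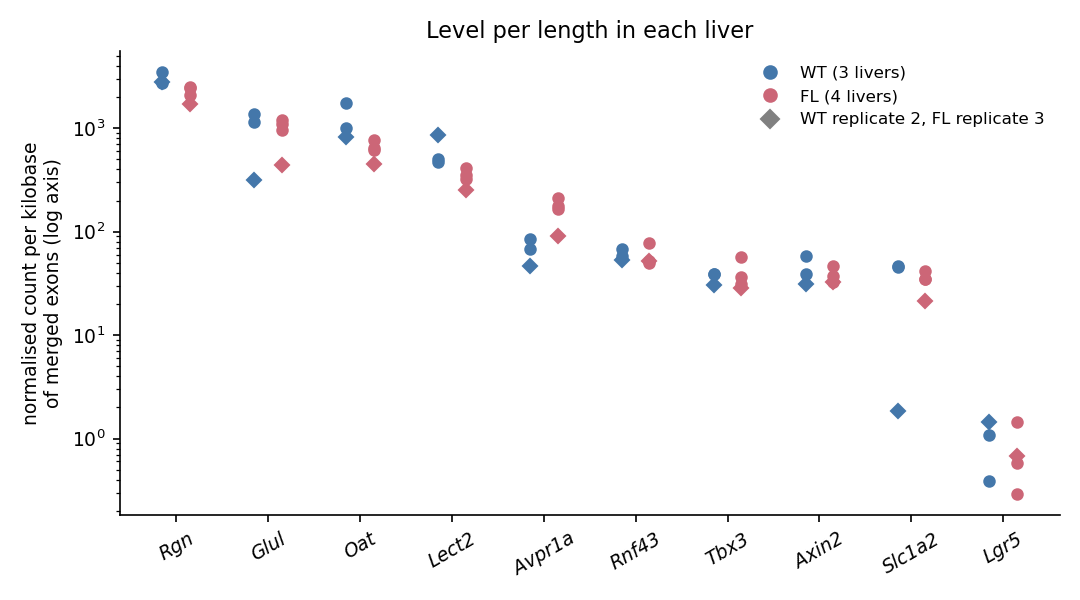
Normalised count per kilobase of merged exons (y axis, log scale) of the 10 genes, in order of the FL mean, in each WT (blue) and FL (red) liver. Diamonds mark WT replicate 2 and FL replicate 3. *Rgn* lies highest and *Lgr5* lowest in both genotypes, and the *Slc1a2* diamond of WT at 1.83 sits far under the other WT values.

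The 4 genes whose pattern over the 7 livers was nearest to that of *Glul*, by the root mean square difference of centred log2 values, were *Slc22a4* (0.091), *Dnajb9* (0.099), *Gm15908* (0.115) and *Ero1lb* (0.129). *Slc22a4*, a transporter of organic cations, read 230, 269, 97 and 228 in FL livers 1 to 4 and 282, 65 and 281 in WT livers 1 to 3, with the same 2 low livers. *Dnajb9* and *Ero1lb* encode proteins of the endoplasmic reticulum. Nearest to *Avpr1a* were *Cebpb* (0.299), *Hsbp1l1* (0.321), *Errfi1* (0.330), *Plin4* (0.333) and *Gm15408* (0.340), at larger distances. *Cebpb*, a liver transcription factor, read 3958, 4934, 2188 and 3774 against 2330, 1259 and 2690. None of the genes named for either was among the 5 nearest without WT liver 2 and FL liver 3. Whether leaving out other livers would change these groups as much was not tested.

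Among the members themselves the closest pairs were *Axin2* with *Rnf43* (0.17), *Rnf43* with *Tbx3* (0.17) and *Axin2* with *Tbx3* (0.26), followed by *Oat* with *Rgn* (0.31). The most distant were *Lgr5* with *Slc1a2* (2.00) and *Lect2* with *Slc1a2* (1.92). All of these genes were read in the same 7 libraries, and the distances carry no test.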

How the data were processed

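Liver polyA RNA of 7 mice was sequenced from stranded mRNA libraries. The authors aligned reads with TopHat2 (2.0.13) and Bowtie2 (2.2.6.0), per the submitters' processing notes, used HTSeq to count reads on each gene, and scaled those counts with DESeq2 size factors. The HTSeq strand setting is not given in the sources used here, and reads of a gene and an antisense partner may not be separated. What the authors deposited is the result rounded to whole numbers, in units of normalised counts, and it was treated as a score rather than as raw counts. A count model was therefore not used, and the designed test on normalised values, limma, was applied. The notes name GRCh38 as the build, which is a human one. Coordinates and symbols here are from GENCODE vM21 (GRCm38), which matched 14839 of 14851 identifiers. Of these identifiers, 120 stood on several rows with identical values and were kept once.

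Log2 of the normalised count plus 1 was fitted with limma 3.58.1 (R 4.3.3, moderated with a trend) for genes with a mean of at least 10, and p-values were adjusted by Benjamini-Hochberg over 12545 genes at 0.05. A log2 fold change on this scale understates changes of low genes. The script was tested on simulated data. Each liver is 1 mouse. The members and gene lists were chosen with earlier results of these data known. Named genes are the 10 members in every liver, *Trp53*, the 5 genes nearest to *Glul* and to *Avpr1a* (1 of those nearest to *Glul* is not reported here), and from each list those past the threshold or else up to 3 with the lowest and 3 with the highest log2 fold change. *Lgr4*, *Znrf3*, *Wnt2*, *Wnt9b*, *Rspo3*, *Hal*, *Gls2*, *Cyp2c37* and the other list genes shown liver by liver were picked after their values were seen. Alternatives covered the pseudocount, filter, scaling, trend, robust fit, weights, a replicate block and leaving out livers.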

Additional observations from a re-analysis of the deposited data

Results flagged for a closer look

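In the group of 4 FL livers, the gap between the extreme liver and its nearest neighbour, divided by the range, was above Dixon's 95% critical value in 18 of the 168 genes examined, where chance would give about 8.4. The genes examined were the members, *Trp53* and the genes of every list, with a mean of at least 10, and they are not independent of each other. FL liver 3 was the extreme one in 16 of the 18. Groups of 3 WT livers were not examined.

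The member among them was *Rnf43* at 0.913, with FL liver 1 at 509 above the other FL livers at 326 to 342. In the Wnt lists *Wnt9a* gave 0.846 (60, 57, 34 and 56 in FL livers 1 to 4), *Gsk3a* 0.844, *Csnk1a1* 0.85, *Nkd1* 0.842 and *Prox1* 0.855. Among pericentral genes *Pon1* gave 0.924 (8391, 8503, 5212 and 8651) and *Gstm3* 0.873 (267, 211, 1355 and 356). Among periportal genes *Aldh1b1* gave 0.871 (529, 356, 2308 and 608), *Etnppl* 0.896 and *Uroc1* 0.878. Markers of other cells gave 0.878 for *Cdh13*, where FL liver 2 was high, 1.0 for *Cd3e*, 0.886 for *Col1a1* and 0.875 for *Col3a1*. Proliferation genes gave 0.845 for *Mki67*, 0.933 for *Aurkb* and 0.881 for *Birc5*, and FL liver 3 was high in each of these.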

How the results depend on the processing

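Over 19 alternatives the log2 fold change of *Avpr1a* ran from 1.02 to 1.5, that of *Oat* from -1.14 to -0.59, that of *Rgn* from -0.58 to -0.36 and that of *Lect2* from -0.99 to -0.44, with no change of sign. *Glul* ran from -0.53 to 0.53 (sign changed under 4), *Slc1a2* from -0.52 to 1.79 (3), *Tbx3* from -0.17 to 0.16 (4), *Axin2* from -0.37 to 0.09 (1) and *Rnf43* from -0.22 to 0.03 (1). *Lect2* moved to -0.44 without both WT liver 2 and FL liver 3, and there 1 member passed the adjusted threshold (*Avpr1a*), where 0 did otherwise. Nothing is read from that call, since *Avpr1a* was chosen for its difference in this contrast and the livers were left out for standing apart. Scaling each liver to the same total moved the median of all genes from 0.01 to -0.10.

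Against 2 genes past the adjusted threshold, limma called 0 with a pseudocount of 5 (404 at an unadjusted p under 0.05), 0 with at least 10 in every liver (356), 0 with a mean of at least 50 (316), 0 without a trend (465), 1 with quantile normalisation, 5 with array weights, and 6 without both WT liver 2 and FL liver 3. Leaving out 1 liver gave 0 to 5, namely 1 without FL liver 3, 5 without WT liver 3 and 0 without any other (248 to 739 at an unadjusted p under 0.05). The 5 without WT liver 3 were *Clca1*, *Dmbt1*, *Fcgbp*, *Lypd8* and *Pla2g2a*. Each was high in WT livers 1 and 2 and low in every other liver. *Trp53* kept its direction throughout, with log2 fold changes of -2.44 (adjusted p = 0.0501, pseudocount of 5), -2.47 (adjusted p = 0.0643, at least 10 in every liver), -2.47 (adjusted p = 0.0666, mean of at least 50) and -2.47 (adjusted p = 0.103, no trend), and from -2.68 to -2.35 with 1 liver left out (past the threshold without FL liver 3 and not without the others). It was -2.78 (adjusted p = 2.58e-05) without both WT liver 2 and FL liver 3. With the length of the longest transcript, 2 ranks of the per-length order changed, those of *Avpr1a* and *Rnf43* in WT livers. Without both livers, 0 of the 5 genes nearest to *Glul* and 0 of the 5 nearest to *Avpr1a* were shared with the lists from all livers. The cause of these changes was not tested. No Wnt, zonation or vasopressin list gene passed the adjusted threshold under any of the 19. The bile duct marker *Sox9* passed it with array weights and without both WT liver 2 and FL liver 3.

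With the replicate number as a block, limma called 0 genes (110 at an unadjusted p under 0.05), and *Trp53* had -2.35 (adjusted p = 1). The deviations of same-numbered livers had correlations of 0.44, -0.48 and -0.66. WT liver 2 and FL liver 3, which stood apart under different numbers, weigh on these values whether or not the mice were paired. Whether the numbers pair the mice therefore cannot be told from them.

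Of 85 listed Wnt genes 54 were tested, and *Lgr5* was too low to be tested. With 3 and 4 livers per group, 2 of which stood apart, standard errors of the members ran up to 1.05 on the log2 scale.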
